A study of Mus musculus with 4 samples.

Results

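Genes for zinc finger proteins of the Zfp, Zbtb and Zkscan series were followed in mouse embryonic stem (ES) cells treated with inhibitors of FGFR, MEK or GSK-3. Members were the genes whose symbol is Zfp followed by a digit or begins with Zbtb, Zscan or Zkscan, as far as the gene lists used here pair a symbol with a probe of the arrays. This gave 37 members, with 25 symbols of the Zfp series, 10 of the Zbtb series, 2 of the Zkscan series and 0 of the Zscan series. They are part of 5619 genes with a symbol and of 25030 genes with a deposited value, so that 22.4% of all genes could be searched by name. How a member entered matters for every value below. For 32 members the symbol came only from a list ordered by response to induced transcription factors in other cultures of ES cells, of which the rows held are those of the least responsive genes. For 4 members it came only from a stretch of chromosome 1 in genome order, and for 1 member, Zfp142, from both.

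ES cells of the line B6R(5), male and of the C57BL/6 strain, were grown without feeders. The 4 cultures differed only in what was added 24 hr after plating, which was DMSO alone for the control, or the FGFR inhibitor PD173074, the MEK inhibitor PD98059 or the GSK-3 inhibitor BIO in DMSO. Every culture held 0.2% DMSO and was harvested 48 hr after treatment. The Methods give doses of 100 μM, 25 μM and 2 μM in that order, whereas a supplementary list prints the same numbers in mM. RNA of each culture was labeled with Cy3 and hybridised to 1 array beside a Cy5-labeled reference, a pool of RNA from 11 mouse cell lines, and the dyes were never exchanged. The labels name this pool alone. The Methods describe, under the organ samples, a reference that also held RNA of MC1 cells, and for the inhibitor cultures they refer back to the procedure already described, so the labels and the Methods differ on whether MC1 RNA was in the reference. There was 1 array per condition, so the spread between replicate cultures is unknown, no test was made, and a change of RNA per cell cannot be told apart from a change in the mix of cells.

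The classic zinc finger folds around a zinc ion held by paired cysteines and paired histidines (C2H2), and arrays of such fingers read DNA bases one after another. The domain in front of the fingers sets much of what the protein does. KRAB domains recruit the corepressor Trim28 (KAP1) and with it the histone methyltransferase Setdb1, BTB domains let proteins pair and recruit corepressors or the ubiquitin ligase scaffold Cul3, and SCAN domains serve for pairing. In ES cells, KRAB zinc finger proteins are known for silencing endogenous retroviruses. Classes were assigned from general knowledge of the proteins and not from a file or from their sequences. By protein class, 9 members were BTB proteins, 9 were KRAB or SCAN proteins, 15 were other C2H2 proteins, and 3 act mainly on RNA, ribosomes or SUMO. Zbtb8os is named for its place opposite a Zbtb gene and is not a zinc finger protein, which leaves 36 zinc finger members.

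Each member was read by 1 probe of 60 bases. In 4 members the probe itself reads as part of a finger in an open frame, against 115 of all 25030 genes searched (0.459%). These probes are shown because they tie the measurement to the domain that gives the family its name, and capitals mark the codons of the zinc-binding cysteines or histidines.
Zbtb17: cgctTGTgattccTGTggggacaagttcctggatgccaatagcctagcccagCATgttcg
Zbtb48: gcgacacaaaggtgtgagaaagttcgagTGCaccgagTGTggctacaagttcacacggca
Zfp575: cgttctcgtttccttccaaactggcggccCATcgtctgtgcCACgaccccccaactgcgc
Zkscan14: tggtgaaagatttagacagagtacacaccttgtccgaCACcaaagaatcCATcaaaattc
The Zbtb17 probe holds both cysteines and the first histidine of a finger, the Zbtb48 probe holds both cysteines, and the Zfp575 and Zkscan14 probes hold the histidine pair. The files mark the probes as unmapped, so no position in the genome is given for them.

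Promoter sequences of RefSeq (build GRCm38.p6), running from 250 bases before to 50 bases after the start of transcription, were found for 30 of the 37 members. In the 250 bases before the start, the ratio of observed to expected CpG had a median of 0.79 over the members, against 0.38 over 27025 RefSeq promoters, and it was at least 0.6 in 23 members (76.7%) against 34.5% of all promoters. The other genes from the list of least responsive genes had a median of 0.80, close to that of the members. The GC box GGGCGG was present in 21 of 30 member promoters (70%, against 35.9% of all promoters and 64.1% of those of the other least responsive genes). CCAAT was present in 13 members (43.3% against 38% of all promoters), and the ETS word CCGGAAG in 8 (26.7% against 9.14% of all promoters). The other least responsive genes held these words in 40.6% and 30.3% of their promoters.

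Other words were each present in few member promoters. The NRF1 core CGCATGCG was in 4 (13.3% against 1.92% of all promoters), the YY1 word AAGATGGCG in 4 (13.3% against 1.48% of all promoters), the TCF/LEF word CTTTGAT in 4 (13.3% against 3.76%), and the CREB word TGACGTCA in 2 (6.67% against 1.85%). The E-box CACGTG was in 0 of 30, against 7.24% of all promoters. Among the other least responsive genes the shares were 6% for the NRF1 core, 5.29% for the YY1 word, 3.47% for the TCF/LEF word, 3.71% for the CREB word and 11.4% for the E-box. All 8 words were searched on both strands over the 300 bases, and a match describes letters only. The promoters of Zfp68 and Zbtb22 are shown, since these genes had the largest differences in the GSK and FGFR comparisons below. Capitals mark matches to any of the 8 words, each sequence ends at the base before the start, and neither stretch overlaps a gene in RefSeq.
Zfp68, chr5:138619744-138619993, minus strand: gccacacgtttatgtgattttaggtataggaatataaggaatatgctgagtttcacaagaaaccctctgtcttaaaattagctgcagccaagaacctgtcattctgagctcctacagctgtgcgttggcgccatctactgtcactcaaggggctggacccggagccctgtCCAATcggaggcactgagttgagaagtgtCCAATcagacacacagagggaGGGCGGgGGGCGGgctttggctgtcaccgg
Zbtb22, chr17:33915926-33916175, plus strand: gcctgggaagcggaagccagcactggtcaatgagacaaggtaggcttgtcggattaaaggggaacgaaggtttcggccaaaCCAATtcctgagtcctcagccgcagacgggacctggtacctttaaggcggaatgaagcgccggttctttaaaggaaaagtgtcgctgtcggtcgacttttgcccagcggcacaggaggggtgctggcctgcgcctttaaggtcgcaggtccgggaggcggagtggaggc
In the Zfp68 promoter CCAAT began 80 and 51 bases before the start and GGGCGG began 30 and 23 bases before it. The Zbtb22 promoter held CCAAT at 169 bases before the start. Both genes also held the YY1 word within the 300 bases searched, outside the stretch shown. Neither held the TCF/LEF word, which was found in Zfp142, Zfp143, Zfp148 and Zfp715.

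The family was detected almost throughout. On all 4 arrays, 36 of 37 members gave a Cy3 signal of ES cell RNA well above background, against 64.8% of all 25030 genes, and for 100% of the other genes from the list of least responsive genes. The exception was Zbtb37, which was too dim in Cy3 on the FGFR array and too dim in Cy5 on every array. No member had a saturated spot. The ES cell identity of the samples was checked with 3 markers whose probes could be named. Tcfcp2l1, a transcription factor of naive pluripotency, had a log2 ratio to the reference of 2.97 on the control array, Prdm14 one of 2.20 and Gbx2 one of 4.01. On the FGFR array these ratios were 3.39, 2.80 and 3.03, differences of 0.42, 0.60 and -0.98 that each lay beyond 2 times the spread of genes of similar signal defined below, although for Gbx2 Cy3 alone gave -2.34 and the processed signals gave -0.19. On the MEK array Tcfcp2l1 again lay beyond 2 times its spread (0.40 beside 0.15), and on the GSK array none of the 3 did. The ratios stayed at 2.04 or more on every array. Gbx2 was also below the control on the MEK and GSK arrays, with differences of -0.22 on both, within 2 times its spread. The processed signals gave -0.10 and -0.23 for Gbx2 on these arrays. The paper reports the opposite direction for this gene, a rise with every inhibitor. The reason for this difference was not tested. Ptprc (CD45), the pan-leukocyte marker, was not well above background in Cy3 on any array. The endoderm factor Sox17 was well above background on all 4 arrays, with log2 ratios of 1.73 to 2.21, and the part of these markers in the values of the members was not tested.

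Levels of the members against the reference spanned a wide range. A positive log2 ratio means more RNA in ES cells than in the pooled reference. On the control array the median over the 37 members was 0.21, the quartiles were -0.36 and 0.73, and 19 members lay above 0. Without Zbtb37, the member with an unmeasured reference, the median was 0.10, with 18 of 36 above 0. The median was 0.05 over all genes measured and 0.21 over the other least responsive genes. The sign of the members' median depends on scaling, since centring each array on its median gave -0.31 for the members and -0.27 for all genes. At least 2-fold above the reference were 7 members (18.9%, against 18.4% of all genes), namely Zfp286, Zfp1, Zbtb48, Zbtb3, Zfp617, Zbtb8 and Zfp513. At least 2-fold below it were 2 members (5.41%, against 19.7% of all genes and 8.82% of the other least responsive genes), namely Zfp68 and Zbtb41. These counts were 4 and 7 with median centring, and 11 and 2 with the processed signals, where 24 members lay above 0.

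**Figure D1:**
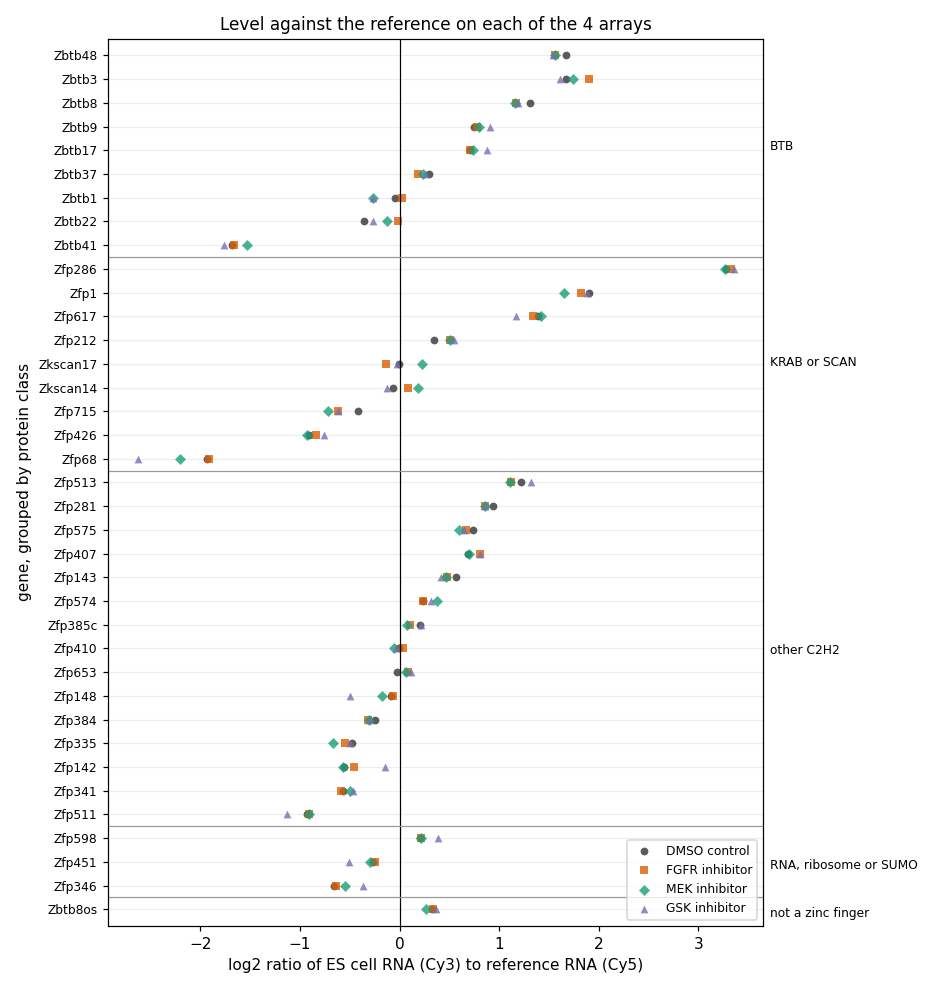
Log2 ratio of ES cell RNA (Cy3) to reference RNA (Cy5) for each of the 37 genes on the 4 arrays, 1 point per array, with genes grouped by protein class and ordered by the control array. Points of 1 gene lie close together compared with the distance between genes, from 3.28 for Zfp286 to -1.94 for Zfp68 on the control array. Zbtb37 had a reference signal not well above background.

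The highest ratio belonged to Zfp286, a KRAB protein. Its log2 ratio was 3.28 on the control array, 3.33 with the FGFR inhibitor, 3.27 with the MEK inhibitor and 3.35 with the GSK inhibitor, a level 9.69 times that of the reference in the control. With these settings all 4 values lay within 0.08 of each other, but the GSK difference ran from -0.21 with the processed signals to 0.49 with Cy3 alone and had the same sign in 4 of 7 settings. Those 7 include Aquantile, which leaves ratios as they are, and the deposited values, which repeat the processed signals. The reference signal of this probe was low, at 81.1 to 146 processed units, and with other processing the control ratio ran from 2.73 to 4.69. Zfp1, another KRAB protein, had ratios of 1.90, 1.82, 1.65 and 1.88 in the same order. Zbtb48 (TZAP), which binds telomeric repeats, had ratios of 1.67, 1.56, 1.56 and 1.54, with the control highest. Zbtb3 had ratios of 1.67, 1.90, 1.74 and 1.61, and Zbtb8 (Zbtb8b in RefSeq) had ratios of 1.31, 1.17, 1.16 and 1.19. With other processing the control ratio ran from 1.12 to 2.30 for Zbtb48 and from 1.13 to 2.27 for Zbtb3.

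The lowest ratios on the control array were those of Zfp68, Zbtb41 and Zfp511, and on the MEK array Zfp426 (-0.93) took the place of Zfp511. Zfp68, a KRAB protein, had ratios of -1.94, -1.91, -2.20 and -2.63, the last on the GSK array. Zbtb41 had ratios of -1.69, -1.66, -1.53 and -1.76. Zfp511 had ratios of -0.93, -0.91, -0.91 and -1.13. These 3 genes were below the reference on every array and under each way of processing tried for the control array.

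By class, the 9 BTB members had a median log2 ratio of 0.71 on the control array, the 9 KRAB or SCAN members one of -0.01, the 15 other C2H2 members one of -0.0041 and the 3 RNA, ribosome or SUMO members one of -0.27. The classes overlapped widely, from -1.69 to 1.67 in BTB members and from -1.94 to 3.28 in KRAB or SCAN members. Each value is a ratio to the same reference RNA and does not rank the transcripts by abundance.

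Changes with the inhibitors were small. No member differed from the control by 2-fold or more with any inhibitor, and the only difference of at least 1.5-fold was that of Zfp68 with the GSK inhibitor, which was under 1.5-fold, at -0.51 on the log2 scale, when Cy3 was used alone. With the processed signals of the scanner software, Zbtb37 passed 2-fold on the GSK array at a log2 change of 1.08, against -0.04 here, but its reference signal was too dim to be measured. Among all genes measured, 1.39% differed by 2-fold or more with the FGFR inhibitor, 0.0832% with the MEK inhibitor and 1.43% with the GSK inhibitor. At 1.5-fold the shares were 5.7%, 1.05% and 6.54%. At those rates a group of this size would hold few or none at 2-fold, so a count of 0 is close to the background. It also lies beside the other least responsive genes, of which 0, 0 and 1 of 1961 reached 2-fold and 3, 1 and 21 reached 1.5-fold with the FGFR, MEK and GSK inhibitors.

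**Figure D2:**
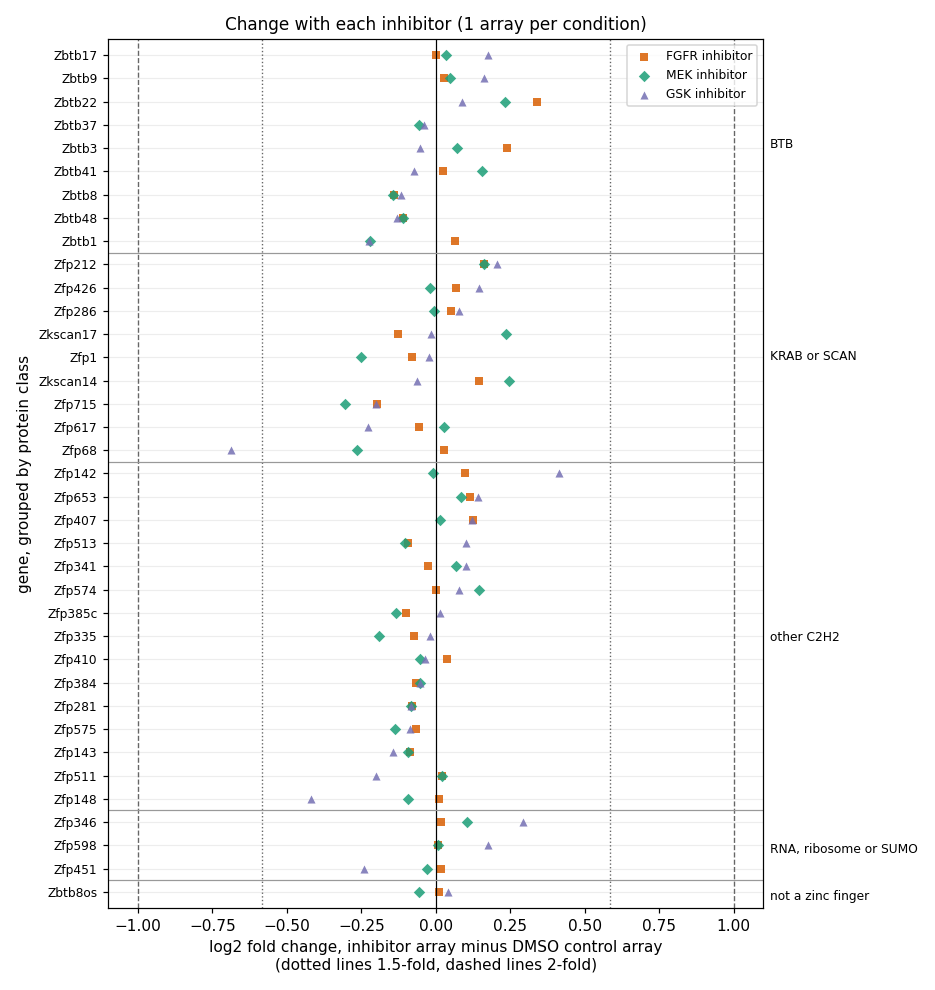
Log2 fold change of each gene, the inhibitor array minus the DMSO control array, for the 3 inhibitors, with 1 array per condition and genes ordered within each protein class by the GSK comparison. Points are drawn for genes whose Cy3 signal passed the background filter on both arrays. All lie inside the dashed 2-fold lines, and the point of Zfp68 with the GSK inhibitor, at -0.69, is the only one outside the dotted 1.5-fold lines.

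With the FGFR inhibitor, the log2 fold changes of the 36 measured members ran from -0.20 to 0.34 with a median of 0.01, against -0.02 over all genes. Of these members 22 were above 0 and 14 (38.9%) below, where 54.0% of all genes and 54.7% of the other least responsive genes were below. A yardstick for single genes was the robust SD of the change among genes of similar signal, which holds true changes as well as error and was 0.20 to 0.26 for the members. None of the members lay beyond 2 such SD, against 10.6% of all genes and 0.816% of the other least responsive genes. The largest difference was that of Zbtb22, a BTB protein, with log2 ratios of -0.36 in the control and -0.02 with the inhibitor, a change of 0.34 beside a spread of 0.22. With the MEK and GSK inhibitors its ratios were -0.13 and -0.27, so the control was the lowest of the 4. Zbtb3 followed at 0.24 and Zfp212, a KRAB protein, at 0.16. The ratios of Zfp212 were 0.34 in the control and 0.51, 0.50 and 0.55 with the FGFR, MEK and GSK inhibitors. The lowest values were -0.20 for Zfp715, -0.14 for Zbtb8 and -0.13 for Zkscan17 (Nizp1, a partner of the histone methyltransferase Nsd1). For Zfp715 the difference was not seen in Cy3 alone, where it was -0.0035. The Cy5 signal of the reference was 0.28 higher on the FGFR array without centring, and 0.21 higher when centred on the median over all genes.

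With the MEK inhibitor, the 37 members ran from -0.30 to 0.25 with a median of -0.02, against -0.01 over all genes. There were 16 above 0 and 21 (56.8%) below, beside 52.7% of all genes and 53.1% of the other least responsive genes. None lay beyond 2 robust SD, against 7.79% of all genes and 1.73% of the other least responsive genes. The highest values were 0.25 for Zkscan14, 0.24 for Zkscan17 and 0.23 for Zbtb22, beside spreads of 0.19, 0.15 and 0.16. The lowest were -0.30 for Zfp715, -0.26 for Zfp68 and -0.25 for Zfp1, beside spreads of 0.18, 0.15 and 0.15. Zkscan17 was at -0.01 in the control, -0.14 with the FGFR inhibitor, 0.23 with the MEK inhibitor and -0.03 with the GSK inhibitor, so the MEK array stood above the other 3. Zfp715, a KRAB protein, had ratios of -0.42, -0.62, -0.72 and -0.62, with the control highest, but its probe was dim, at 201 to 224 processed Cy3 units. In Cy3 alone its MEK difference was -0.12, while its Cy5 signal was 0.25 higher on the MEK array than on the control array, without centring. With each channel centred on its median over all genes, the changes were -0.20 in Cy3 and 0.12 in Cy5. Centring on the median moved all genes of this comparison upward, to a median of 0.10, and the members to 0.14 with 8 of 37 below 0.

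With the GSK inhibitor, the 37 members ran from -0.69 to 0.41 with a median of -0.02, against -0.0033 over all genes, and 16 were above 0 and 21 (56.8%) below, beside 50.6% of all genes and 46.3% of the other least responsive genes. Only Zfp68 lay beyond 2 robust SD, against 8.95% of all genes and 2.09% of the other least responsive genes. Its ratio of -2.63 on the GSK array was 0.69 below the control value of -1.94, a 1.61-fold lower level, beside a spread of 0.28. The processed Cy3 signal of Zfp68 was 4616 in the control, 5198 with the FGFR inhibitor, 4435 with the MEK inhibitor and 3267 with the GSK inhibitor. The Cy5 signal of the reference was 16833, 18086, 19159 and 19034, which is 0.18 higher on the log2 scale on the GSK array than on the control array, without centring. The Cy3 signal was the lowest of the 4 on the GSK array, and the Cy5 signal was the lowest on the control array. The change of Zfp68 ran from -0.71 to -0.51 over all ways of processing.

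The highest values with the GSK inhibitor were 0.41 for Zfp142, 0.29 for Zfp346 and 0.21 for Zfp212, and the lowest after Zfp68 were -0.42 for Zfp148 and -0.24 for Zfp451. All 5 lay within 2 robust SD, the spread being 0.27 to 0.30. Zfp142 had ratios of -0.56 in the control, -0.46 with the FGFR inhibitor, -0.56 with the MEK inhibitor and -0.14 with the GSK inhibitor. Zfp148 had ratios of -0.08, -0.07, -0.18 and -0.50. In both genes the GSK array stood apart from the other 3, in opposite directions. Zfp346, which binds double-stranded RNA, had ratios of -0.66, -0.64, -0.55 and -0.36, and Zfp451, a SUMO ligase, had ratios of -0.27, -0.25, -0.30 and -0.51.

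**Figure D3:**
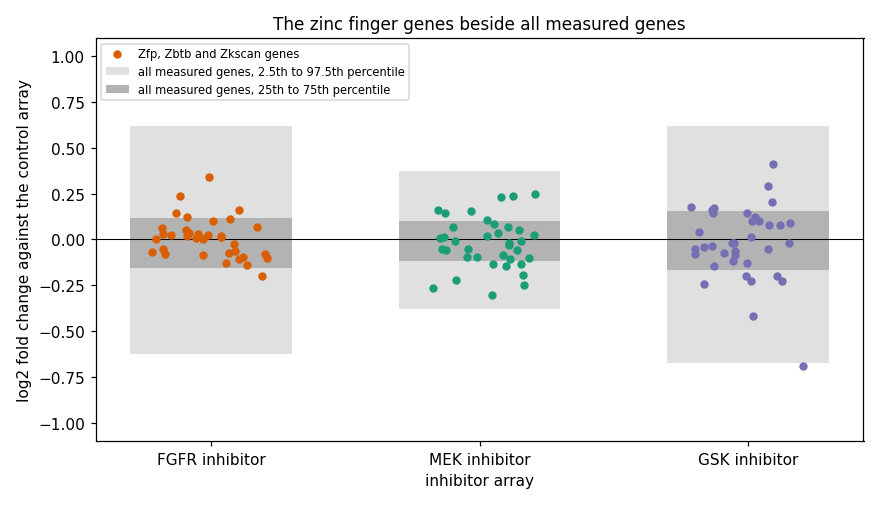
Log2 fold change against the control array for the zinc finger genes (points, 1 per gene, spread sideways for sight) over all genes measured in the same comparison (grey bars, the central 50% and 95%). Of the members, 30 of 36, 22 of 37 and 24 of 37 lay within the quartiles of all genes with the FGFR, MEK and GSK inhibitors, and Zfp68 with the GSK inhibitor alone lay outside the central 95%.

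The reference channel gave a second yardstick, because the same RNA was labeled with Cy5 on every array, so that this channel holds no change of the cells. With each channel centred on its median over all genes, the robust SD of the change over 36 members in both channels was 0.11 in Cy3 and 0.08 in Cy5 for the FGFR comparison. It was 0.12 and 0.10 for the MEK comparison, and 0.25 and 0.15 for the GSK comparison. Over all genes the Cy3 changes spread further, at 0.27, 0.21 and 0.35, while the Cy5 changes were similar to those of the members at 0.10, 0.10 and 0.17. The GSK array was thus the widest in both channels. Zfp286 showed this most, since on the GSK array its Cy5 signal was 0.70 above and its Cy3 signal 0.45 above the control on the log2 scale, while its processed ratio, without this centring, differed by -0.21 and its ratio after normexp and loess by 0.08. Zfp143 was 0.34 higher in Cy5 and 0.17 higher in Cy3 on that array, and its ratio after normexp and loess differed by -0.14.

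**Figure D4:**
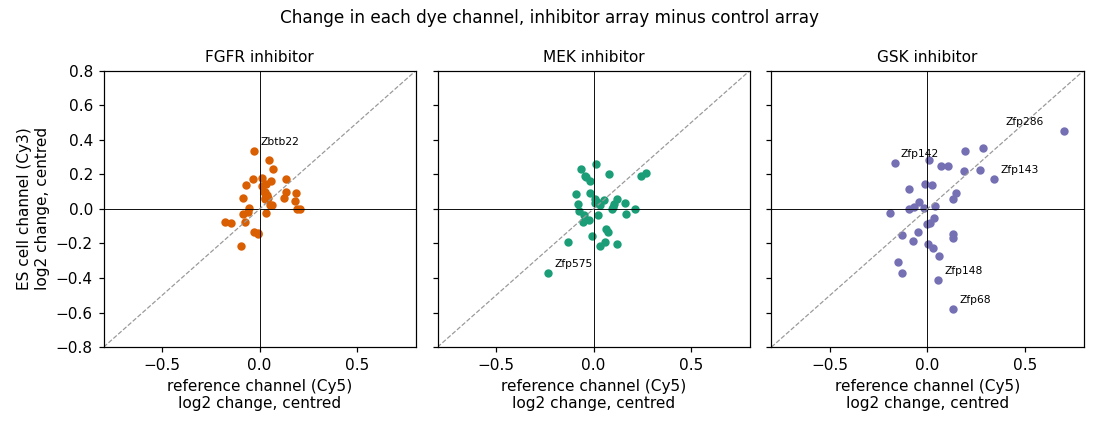
Log2 change of the ES cell channel (Cy3, vertical axis) against that of the common reference channel (Cy5, horizontal axis) for 36 genes, each inhibitor array minus the control array, processed signals centred on the median of all genes. Points on the dashed diagonal changed equally in both channels. On the GSK array Zfp68 lies at -0.58 in Cy3 and 0.13 in Cy5, whereas Zfp286 is high in both.

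Over the 4 arrays the log2 ratio of a member varied by 0.18 in the median gene, compared with 0.28 over all genes detected on every array and 0.22 over the other least responsive genes. A range of at least 1.5-fold was seen in 1 of 36 members (2.78%), against 13.5% of all genes and 1.78% of the other least responsive genes. The narrowest range was that of Zfp384 (Nmp4, CIZ), a regulator known from bone, with ratios of -0.25, -0.32, -0.30 and -0.30. Zfp281, which binds GC-rich promoters and is known in ES cells as a partner of pluripotency factors, followed with 0.94, 0.86, 0.86 and 0.86. Its paralog Zfp148, described above, varied by 0.43, and only its GSK value set it apart.

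The remaining members named for their known roles, beside Zfp148 and Zfp451 above, had the following values. Zbtb17 (Miz-1), the partner through which Myc represses genes, had ratios of 0.71, 0.71, 0.74 and 0.88, and its change with the GSK inhibitor was 0.17 beside a spread of 0.28. Zfp143 (Staf), an activator bound at many promoters, had ratios of 0.56, 0.48, 0.47 and 0.42. Zfp410, known for activating the remodeler gene Chd4, lay between -0.06 and 0.03 on the 4 arrays. With other processing its change with the GSK inhibitor ran from -0.04 to 0.25, the latter in Cy3 alone. Zfp598, a ubiquitin ligase that marks collided ribosomes, had ratios of 0.21, 0.21, 0.22 and 0.38. Zbtb8os, the member that is not a zinc finger protein, had ratios of 0.33, 0.34, 0.27 and 0.37. It is among 14 members that no criterion singled out, whose control ratios ran from -0.91 to 1.39 and whose changes ran from -0.23 to 0.16 over the 3 comparisons.

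Genes known to act with the members were examined through a list of cofactors, of which 15 of 28 had a named probe. None of the 15 differed by 1.5-fold or more with any inhibitor, and their median changes were -0.01, 0.02 and 0.00 with the FGFR, MEK and GSK inhibitors. Of all genes 5.7%, 1.05% and 6.54% reached 1.5-fold, and of the 1961 other least responsive genes 3, 1 and 21 did. A count of 0 among 15 genes is close to these rates. The median ratio of the 15 cofactors to the reference on the control array was 0.77, and 14 of 15 (93.3%) lay above 0, against 52.7% of all genes and 60.1% of the other least responsive genes. This count is given for 1 setting and depends on scaling. Median centring moved the median of all genes from 0.05 to -0.27, and Hcfc1 (0.17) and Ehmt1 (0.14) lay within such a shift of 0. Chd4, the target of Zfp410, had log2 ratios of 2.12 in the control, 1.94 with the FGFR inhibitor, 1.94 with the MEK inhibitor and 1.83 with the GSK inhibitor. Its change with the GSK inhibitor was -0.29 beside a spread of 0.27, and -0.15 in Cy3 alone. The change of Zfp410 was -0.04, and 0.25 in Cy3 alone. Hcfc1, a cofactor bound by Zfp143, had ratios of 0.17, 0.12, 0.24 and 0.24. Setdb1, the methyltransferase of the KRAB pathway, had a ratio of 1.39 in the control and of up to 1.57 with the inhibitors.

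The translational repressors Gigyf2 and Eif4e2 are partners of Zfp598, and Ascc3 belongs to the complex that splits the ribosomes it marks. Gigyf2 had ratios of 1.42, 1.28, 1.25 and 1.25 and Eif4e2 ratios of 1.36, 1.75, 1.53 and 1.72, with the control lowest. Ascc3 had ratios of 0.77, 0.75, 0.69 and 0.45, with the GSK array lowest. The changes with the GSK inhibitor were -0.17, 0.36 and -0.32 in that order, beside spreads of 0.29, 0.27 and 0.30, and 0.17 for Zfp598 itself.

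Genes with zinc-binding domains outside the naming rule gave a further comparison. The list held 25 genes with a probe, among them Ctcf, the insulator protein, and members of the Zc3h, Zcchc and Zdhhc families. None of the 25 differed by 1.5-fold or more, where 5.7%, 1.05% and 6.54% of all genes did. Of the 1961 other least responsive genes, 3, 1 and 21 did. Wiz is on this list and on the list of cofactors. Beyond 2 robust SD with the MEK inhibitor lay 1 of the 25 (4%), against 7.79% of all genes and 1.73% of the other least responsive genes. It was Zfr (-0.38 beside a spread of 0.19), a gene named after its value was seen. None did with the FGFR or GSK inhibitor, against 10.6% and 8.95% of all genes. The median changes of the 25 were -0.02, -0.06 and -0.07 with the FGFR, MEK and GSK inhibitors, and their median ratio to the reference on the control array was -0.13. By source, the 5 members from the chromosome 1 stretch, which was not chosen for low response, ran from -0.24 to 0.41 with the GSK inhibitor and from -0.08 to 0.15 with the MEK inhibitor. Among the other 1064 genes of that stretch, 43 of 684 measured differed by 1.5-fold or more with the GSK inhibitor, so 5 members are too few to set against them.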

How the data were processed

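The authors deposited the intensity and the local background of each spot as Agilent Feature Extraction output (version 9.5.1.1 per the file headers), with processed intensity corrected by that software. A deposited table of log10 values for 25030 genes matched the scanner files by feature number. Its differences between arrays correlated at r = 1 with those of the processed log ratios, and its absolute scale follows Cy3, so it served for changes only. From the mean intensity, normexp (offset 50) removed the local background and log2 ratios were loess-normalized within arrays in limma 3.58.1 (R 4.3.3). The steps were tested on simulated data. A gene was counted where Cy3 exceeded background clearly on both arrays, and spreads come from 20 groups by signal. Python 3.11.15, pandas 2.3.3 and matplotlib 3.10.9 were used for counts and figures. For genes with several RefSeq starts the outermost was taken. Protein sequences and a genome were not used here.

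Genes given with values were those with a change of at least 1.5-fold, the 3 largest rises and falls per inhibitor with the same sign in processed signals and in Cy3 alone, the 3 highest and 3 lowest levels, and 9 with known roles. The members and lists were chosen with earlier results of these data known. Precision is limited by the number of arrays, 1 per condition. The alternatives tried were a smaller offset (16), unsubtracted signals, processed signals, median centring, Aquantile, Cy3 alone, the deposited log10 table, other filters and other thresholds. The symbol Zbtb8 was matched to Zbtb8b in RefSeq.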

Additional observations from a re-analysis of the deposited data

How the results depend on the processing

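No paired analysis was possible because only 1 array represents a condition, and for the same reason no array could be left out. The count of members changed at least 2-fold was 0 in each comparison, and it stayed at 0 under every alternative except with the GSK inhibitor, where it became 1 with the processed signals, 1 with the deposited log10 table and 1 with a threshold of 1.5-fold. The gene of the first 2 settings was Zbtb37, named after its value was seen, with a change of 1.08 in processed signals against -0.04, and its reference signal was not well above background. The gene at 1.5-fold was Zfp68, at -0.69 on the log2 scale, and it was under 1.5-fold with Cy3 alone, at -0.51. The count of 0 could not have risen with Aquantile or with a threshold of 4-fold. The median change with the MEK inhibitor was -0.02 and became 0.14 with median centring, which moved all genes to 0.10. The remaining alternatives moved the medians by less than the spread among members. For the named genes, 533 values moved by less than their spread and 65 by more, 38 of these with median centring. Aquantile leaves ratios as they are by construction. Dim spots limit what can be read, above all for Zbtb37 and for the reference signal of Zfp286.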
